A study of Mus musculus with 6 samples.

Results

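The integrated stress response genes examined here are *Atf4*, *Ddit3*, *Ppp1r15a*, *Trib3*, *Asns*, *Chac1*, *Sesn2*, *Psat1*, *Phgdh* and *Slc3a2*. They were chosen by name as *Atf4*, *Ddit3* and targets of the response, and they are 10 of the 54446 genes measured. Naive B cells were taken by negative selection from the spleens of *Tent5c* KO mice and WT littermates of a mixed C57BL/6J X CBA background at 12 to 15 weeks of age. All cultures received LPS at 20 µg/ml together with IL-4 at 20 ng/ml for 7 days, which makes B cells divide and develop towards antibody-secreting cells. Total RNA was depleted of rRNA and sequenced with strand information in 3 KO and 3 WT libraries. Each replicate number, which the labels also give as the batch, joins a KO and a WT littermate (pairs 1, 2 and 3). Between 5393558 and 6793520 fragments per library were assigned to genes. Levels are normalized counts, the fragments of a gene divided by the size factor of its library.

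The integrated stress response begins when a kinase phosphorylates the translation initiation factor eIF2 on its alpha subunit, in reply to unfolded protein in the ER (PERK), amino acid shortage (GCN2), double-stranded RNA (PKR) or heme shortage and mitochondrial stress (HRI). General translation then slows, while translation of the *Atf4* mRNA rises through its upstream open reading frames, and ATF4 switches on genes for amino acid supply, redox balance and feedback. In B cells that turn into antibody-secreting cells, the IRE1 and XBP1 branch of the ER stress response is strongly used, while the PERK branch is known to be largely dispensable. RNA levels show the targets of ATF4 but not the phosphorylation of eIF2 or the amount of ATF4 protein.

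The targeted gene does not separate the labels at the RNA level. For pairs 1, 2 and 3, *Tent5c* stood at 1993, 993 and 1170 normalized counts in the library labelled KO and at 1255, 767 and 1584 in the library labelled WT. It was higher in the library labelled KO in pairs 1 and 2 and lower in pair 3 (log2 ratios of 0.67, 0.37 and −0.44). A mutation that leaves the transcript in place would not be seen in gene counts, and KO and WT below name the libraries as labelled.

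Pair 2 stands apart from the other pairs in both genotypes. *Xist*, the RNA that silences an X chromosome in female cells, was at 11636 normalized counts in the KO and 11610 in the WT library of pair 2, and at no more than 6.61 in each of the other 4 libraries. The Y-linked genes *Ddx3y*, *Eif2s3y*, *Kdm5d* and *Uty* had 0 fragments in both libraries of pair 2, while *Ddx3y* had between 1285 and 1477 normalized counts in the others. These sex-linked genes were chosen after their values were seen, and the labels give no sex, while the study used mice of both. A pair, its batch and the sex of its mice cannot be told apart in what follows.

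All 10 genes were expressed and passed the filter on low values, a mean of no less than 10 normalized counts, which 12322 genes passed in all. The comparison of KO with WT asks whether loss of TENT5C goes with other RNA levels of *Atf4* and its targets. The differences were small and mostly towards lower levels in KO. Of the 10 genes, 9 had a negative log2 fold change and 1 a positive one, with a median of −0.09, against a median of 0.001 over all genes tested, of which 49.8% were negative. Pair by pair, the median log2 ratio of the 10 genes was −0.11, −0.05 and −0.17. In each of the 3 pairs *Atf4*, *Ddit3*, *Asns*, *Chac1*, *Sesn2* and *Slc3a2* were lower in KO, which is 6 of 10 genes where 13.1% of all genes tested were lower in all 3 pairs. No member was higher in all 3 pairs, where 11.7% of all genes were. The KO and WT libraries overlapped for all 10 genes, and 6.83% of all genes had groups that did not overlap.

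No member differed between the genotypes by the test. In limma with the pair in the model, 0 of the 10 genes had an adjusted *p* under 0.05 (Benjamini-Hochberg over the 12322 genes tested), and 0% of all genes did. At an unadjusted *p* under 0.05, 2 members, *Chac1* and *Slc3a2*, were lower in KO, where 3.03% of all genes tested (373 genes) were lower, and 0 members were higher, where 1.67% (206 genes) were. Without the replicate block, 0 members and 170 genes were lower at this *p*. In DESeq2, *Slc3a2* was the 1 member lower at this *p*, where 194 of 24684 genes were. The quasi-likelihood test of edgeR called 0 genes. DESeq2, run without the filter at a mean of 10 (24684 genes tested), called 22 lower and 1 higher, none of them a member. Without replicate 1, limma called 168 genes lower and 3 higher in KO, again with 0 members among them. In whole cultures, fewer cells of a type and less RNA per cell cannot be told apart.

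**Figure D1:**
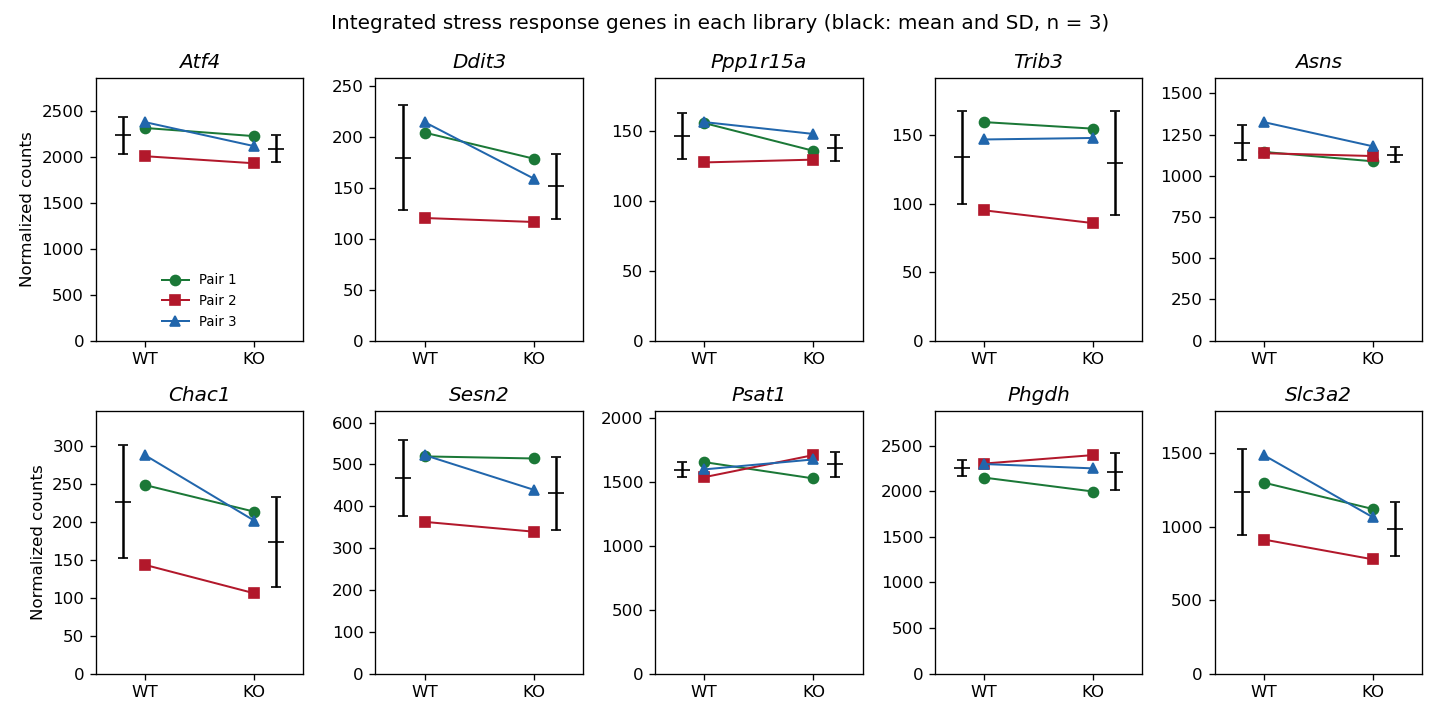
Normalized counts (vertical axes, from 0) of the 10 integrated stress response genes in the 3 WT and 3 KO libraries. Each colour and line is a littermate pair, and the black marks are the mean and SD of each genotype (n = 3). The red line of pair 2 lies lowest in both genotypes for 7 genes, *Asns*, *Psat1* and *Phgdh* being the exceptions.

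*Atf4* (ENSMUSG00000042406, chromosome 15, 80255184 to 80257541 of GRCm38, plus strand), the central activator of the response, had 2229, 1933 and 2120 normalized counts in the KO libraries of pairs 1, 2 and 3 and 2318, 2010 and 2382 in the WT libraries. Each KO library lay slightly under its WT littermate, and the genotypes overlapped. The log2 ratios were −0.06, −0.06 and −0.17, with a counting error of 0.04 to 0.05 each. The fitted log2 fold change was −0.09 with a standard error of 0.06 and a 95% confidence interval from −0.24 to 0.05 (adjusted *p* = 0.970, limma), and it was −0.056 without replicate 3. The translation of *Atf4* was not measured here.

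*Ddit3* (ENSMUSG00000025408, chromosome 10, 127290774 to 127296288, plus strand) encodes CHOP, a factor that ATF4 induces and that promotes cell death when stress persists. It had 178, 116 and 159 normalized counts in KO and 204, 120.2 and 214 in WT. Both libraries of pair 2 were low, and the KO libraries of pairs 1 and 3 lay under their WT littermates but above the WT library of pair 2. The log2 ratios of −0.19, −0.05 and −0.43 gave a fold change of −0.22 (standard error 0.12, 95% interval −0.51 to 0.06, adjusted *p* = 0.970, limma), which was −0.12 without replicate 3. A separate entry of the annotation under the same symbol, of 105 exonic bases, lies wholly inside the exons of *Ddit3* and had 0 fragments. Fragments on these bases fall on both entries, so that they can be missing from the count of *Ddit3*.

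*Ppp1r15a* (chromosome 7, 45522916 to 45526268) encodes GADD34, which brings a phosphatase to eIF2 and restores translation. Its level was 135.9, 129.6 and 148 normalized counts in KO and 156, 128 and 156 in WT, so that 2 of 3 pairs were lower in KO (log2 fold change −0.08, standard error 0.11). *Trib3* (chromosome 2, 152337422 to 152344032), a pseudokinase that restrains ATF4 and CHOP, had 155, 85.8 and 148 normalized counts in KO and 159.6, 95.1 and 147 in WT. The genotypes could hardly be distinguished within a pair, whereas both libraries of pair 2 were well under the other 4. The log2 fold change of *Trib3* was −0.06 (standard error 0.11), with a counting error of 0.16 to 0.21 in each ratio. With 1 replicate left out, the values ran from −0.14 to −0.029 for *Ppp1r15a* and −0.096 to −0.017 for *Trib3*. The adjusted *p* in limma was 0.970 for *Ppp1r15a* and 0.975 for *Trib3*.

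Among the genes for redox balance and nutrient sensing, *Chac1* (ENSMUSG00000027313, chromosome 2, 119351229 to 119354381, plus strand) showed the lowest fold change of the 10. It encodes an enzyme that degrades glutathione in the cytosol. *Chac1* had 213, 106 and 202 normalized counts in KO and 248, 143 and 288 in WT, or 174 ± 59.0 (SD, n = 3) and 227 ± 74.7 (SD, n = 3). Every KO library was under its WT littermate, but the genotypes overlapped, because both libraries of pair 2 were lower than all the others. The log2 ratios were −0.22, −0.43 and −0.51, against counting errors of 0.13 to 0.18. The fitted log2 fold change was −0.39 (standard error 0.11, 95% interval −0.64 to −0.14), with an unadjusted *p* of 0.00884 and an adjusted *p* of 0.872 in limma.

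*Sesn2* (chromosome 4, 132492032 to 132510501), a leucine sensor that holds back mTORC1, had 514, 339 and 439.5 normalized counts in KO and 519, 363 and 522.5 in WT. Pair 1 was nearly equal, pair 3 showed the widest gap, and pair 2 was lowest in both genotypes. Its log2 fold change was −0.12 (standard error of 0.08, 95% interval −0.31 to 0.07, adjusted *p* = 0.970, limma), and it was −0.055 without replicate 3.

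The amino acid genes are a transporter subunit and enzymes of synthesis. *Slc3a2* (ENSMUSG00000010095, chromosome 19, 8706882 to 8723369, minus strand) encodes the CD98 heavy chain, the partner of the light chains of several amino acid transporters, and is also known for its role in the proliferation of B cells. *Slc3a2* had 1119, 777 and 1063 normalized counts in KO and 1299, 912 and 1486 in WT, or 986.5 ± 184 (SD, n = 3) and 1232 ± 293 (SD, n = 3). Each KO library was under its littermate, and the genotypes overlapped because the WT library of pair 2 was lower than the KO libraries of pairs 1 and 3. The log2 ratios of −0.22, −0.23 and −0.48 exceeded their counting errors of 0.06 to 0.07. The fit gave −0.31 on the log2 scale (standard error 0.08, 95% interval −0.49 to −0.13), with an unadjusted *p* of 0.00563 and an adjusted *p* of 0.738 in limma.

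*Asns* (chromosome 6, 7675169 to 7693254), which makes asparagine, had 1088, 1120 and 1179 normalized counts in KO and 1145, 1137 and 1326 in WT. The KO library was lower in each pair, with the WT library of pair 3 highest (log2 fold change −0.09, standard error 0.06, adjusted *p* = 0.970, limma; −0.047 without replicate 3). *Phgdh* (chromosome 3, 98313170 to 98339990) and *Psat1* (chromosome 19, 15904678 to 15947337) act in succession in the synthesis of serine. *Phgdh* had 1998, 2398 and 2252 normalized counts in KO and 2151, 2305 and 2300 in WT, and *Psat1* had 1528, 1711 and 1677 in KO and 1656, 1538 and 1599 in WT. For both genes the KO library was lower in pair 1 and higher in pair 2, and for neither was pair 2 lowest in both genotypes. The log2 fold changes were −0.03 for *Phgdh* (standard error 0.06) and 0.04 for *Psat1* (standard error 0.07), with intervals of −0.18 to 0.12 and −0.14 to 0.21. Their adjusted *p* in limma was 0.984 and 0.982, and both changed sign when 1 replicate was left out (*Phgdh* 0.013 without replicate 1, *Psat1* −0.024 without replicate 2).

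**Figure D2:**
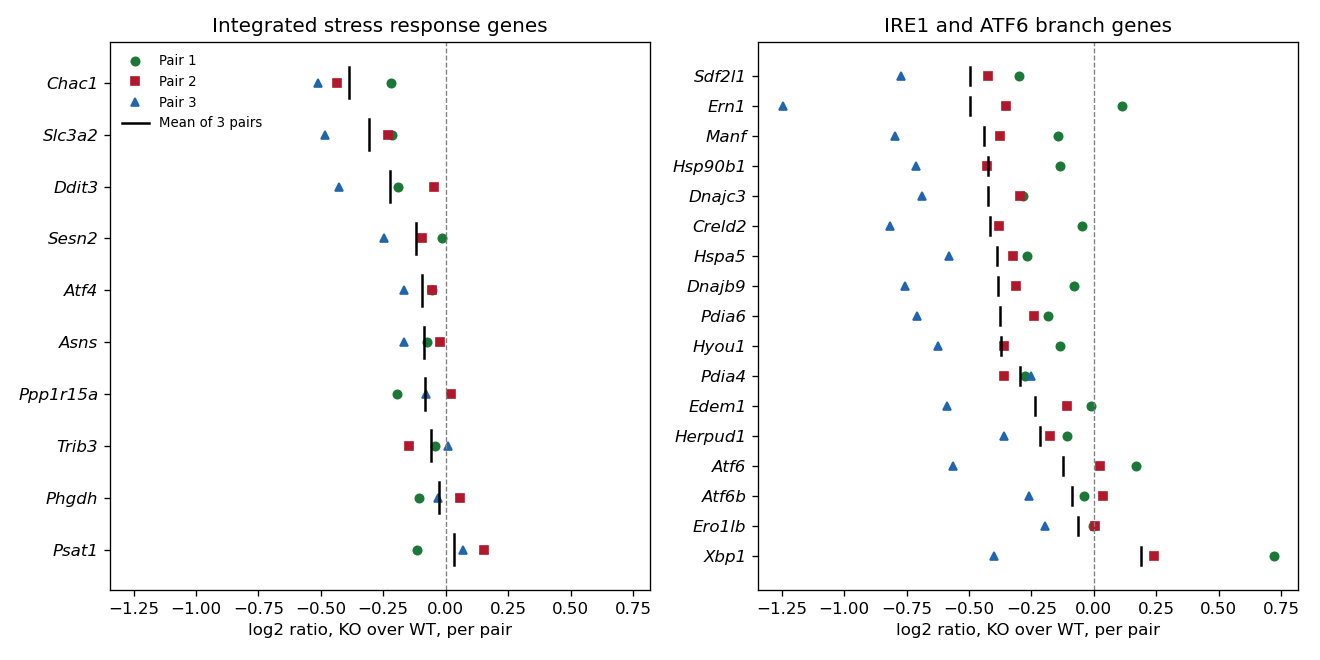
log2 ratio of KO over WT in each littermate pair (points) and their mean (black bars) for the 10 integrated stress response genes (left) and 17 genes of the IRE1 and ATF6 branches of the ER stress response (right), both on the same axis. The median log2 fold change is −0.09 on the left and −0.38 on the right, and pair 3 gives the lowest ratio for most genes on the right.

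For 7 of the 10 genes pair 2 was lowest in both genotypes, where 17.9% of all genes tested (2201 genes) had this pattern, which was noticed after the values were seen. It was also seen in 16 of 17 genes of the IRE1 and ATF6 branches, 11 of 16 other targets of ATF4 or CHOP, 6 of 9 amino acid transporters, 8 of 20 cytosolic aminoacyl-tRNA synthetases, 4 of 12 genes of amino acid and one-carbon synthesis and 4 of 19 genes of the eIF2 machinery. On the log2 scale, pair 2 differed from the mean of the other pairs by −0.93 for *Chac1*, −0.75 for *Trib3*, −0.66 for *Ddit3*, −0.55 for *Slc3a2* and −0.50 for *Sesn2*, as a mean of KO and WT. The same difference was −0.20 for *Atf4* and −0.21 for *Ppp1r15a*, and it was between −0.07 and 0.11 for *Asns*, *Psat1* and *Phgdh*. By rank, the enzymes of asparagine and serine synthesis thus did not share the pattern of the other 7 genes, but the split is not sharp. In the limma F test between pairs, *Ppp1r15a* had an unadjusted *p* of 0.254, above those of *Asns* (0.140) and *Phgdh* (0.113). *Atf4* had 0.0505 and *Psat1* 0.892 in this test.

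In the limma F test of differences between the 3 pairs, *Chac1* was called (adjusted *p* = 0.0365), which is 1 of 10 genes where 1.15% of all genes tested (142 genes) were called. With no filter on low values the adjusted *p* of *Chac1* was 0.126, and 0 members were called. *Slc3a2* and *Trib3* came next, with adjusted *p* of 0.0685 and 0.0884. At an unadjusted *p* under 0.05, 5 members (*Chac1*, *Slc3a2*, *Trib3*, *Sesn2* and *Ddit3*) differed between pairs, where 12.5% of all genes did. Without replicate 2, limma called 0 members and 5 genes in all. Without replicate 3, it called these 5 members and 728 genes, and without replicate 1 it called *Chac1* and *Slc3a2* and 329 genes.

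The 6 plasmablast markers, 5 of them tested, summed to 10308, 5651 and 7003 normalized counts in KO and 8112, 5864 and 13359 in WT. Pair 2 was lowest in both genotypes for 4 of the 5 tested (17.9% of all genes), and *Jchain* was the most abundant. In the limma F test between pairs, 0 of the 5 passed after adjustment (1.15% of all genes). Of the 5, 2 had an unadjusted *p* under 0.05 (12.5% of all genes). *Irf4*, for example, had 3664, 1828 and 2647 in KO and 2886, 1876 and 3338 in WT, and *Prdm1* had 565, 207 and 286 in KO and 325, 206 and 409 in WT. These 2 marker genes were chosen after their values were seen, and the part of plasmablast content or sex in the levels of the stress response genes was not tested.

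The 6 B cell markers summed to between 27594 and 32723 normalized counts, with *Ms4a1* the most abundant, and pair 2 was lowest in both genotypes for 0 of them. The 10 T cell markers summed to between 485 and 625, with *Thy1* the most abundant, and 3 were tested. *Cd3d*, *Cd3e*, *Cd3g*, *Cd4*, *Cd8a* and *Cd8b1* each stayed at or below 10.84 in every library, so that the sum is not a measure of T cells. The 10 myeloid markers summed to 180.3, 33.4 and 139 in KO and 116, 85.7 and 169 in WT, with *Lyz2* the most abundant and *S100a8*, *S100a9* and *Fcgr1* at 0. The 5 NK cell markers summed to between 16.7 and 67.2, with *Gzma* the most abundant. The sum of the myeloid markers was also lowest in pair 2 in both genotypes. Of the 3 tested, 2 had this pattern (17.9% of all genes), and *Adgre1* did not, with 32.1, 33.5 and 32.5 in WT. The part of these markers in the levels of the stress response genes was not tested.

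Per kilobase of exon, the 10 genes spanned a wide range. *Atf4* stood at 918 ± 74.5 normalized counts per kilobase (SD over the 6 libraries) and *Phgdh* at 899 ± 56.7, which do not differ beyond their spread. *Asns* at 426 ± 30.7, *Psat1* at 380.4 ± 17.7 and *Slc3a2* at 314 ± 72.8 per kilobase formed the next group, in which neighbours overlap. *Sesn2* (129 ± 23.8), *Chac1* (122 ± 40.8) and *Ddit3* (103 ± 25.7) followed per kilobase and overlapped as well, and *Trib3* (62.0 ± 15.3) and *Ppp1r15a* (48.4 ± 4.40) were lowest. Apart from *Atf4*, the signalling and redox genes were thus at lower levels per kilobase than the genes of amino acid supply.

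Upstream of ATF4, all 19 genes for eIF2 kinases, eIF2, its exchange factor eIF2B and its phosphatase were tested, with a median log2 fold change of −0.01. In limma, 0 of the 19 had an unadjusted *p* under 0.05, where 3.03% of all genes tested were lower and 1.67% higher in KO. *Eif2ak3*, which encodes PERK, had 464, 354 and 398 normalized counts in KO and 398.5, 353 and 395 in WT (log2 fold change 0.08, standard error 0.08; 0.006 without replicate 1). The libraries of pairs 2 and 3 were nearly equal between genotypes. *Eif2ak4*, which encodes GCN2, had a log2 fold change of 0.09 (standard error 0.10), *Eif2s1*, the alpha subunit of eIF2, −0.02 (0.07), and *Ppp1r15b*, the constitutive partner of the eIF2 phosphatase, 0.03 (0.07). With 1 replicate left out, each changed sign, with ranges of −0.019 to 0.20 for *Eif2ak4*, −0.069 to 0.033 for *Eif2s1* and −0.002 to 0.082 for *Ppp1r15b*. The adjusted *p* of *Eif2ak3*, *Eif2ak4*, *Eif2s1* and *Ppp1r15b* in limma was between 0.970 and 0.989.

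Of 18 other targets downstream of ATF4 or CHOP, 16 were tested, 12 had a negative log2 fold change (49.8% of all genes tested), 4 were lower in KO at an unadjusted *p* under 0.05 (3.03% of all genes), and the median was −0.05. *Atf5*, an ATF4-related factor with upstream open reading frames of its own, had 1193, 841 and 1125 normalized counts in KO and 1265, 1017 and 1320 in WT. Each KO library was lower than its littermate, and pair 2 was lowest in both genotypes, as for *Chac1*. The log2 fold changes were −0.20 for *Atf5*, −0.25 for *Sqstm1*, an autophagy receptor, −0.48 for *Gadd45a*, a growth arrest gene, and −0.31 for *Ero1l*, an ER oxidase, each with an adjusted *p* of 0.970 in limma. Without replicate 3 the values were −0.16 for *Sqstm1*, −0.34 for *Gadd45a* and −0.15 for *Ero1l*. *Atf3*, among the 4 genes with a positive value, had the highest at 0.39 (standard error 0.22), with 67.0, 57.2 and 57.2 normalized counts in KO and 53.8, 30.3 and 59 in WT; with 1 replicate left out it ran from 0.13 to 0.60. *Cebpb* (−0.06), *Cebpg* (−0.07), *Ddit4* (−0.07), *Nupr1* (−0.02) and *Eif4ebp1* (−0.04) had log2 fold changes near 0. With 1 replicate left out, *Cebpb* ran from −0.16 to 0.12 and *Nupr1* from −0.11 to 0.16, so that both changed sign. The others ran from −0.099 to −0.030 for *Cebpg*, −0.17 to −0.019 for *Ddit4* and −0.073 to −0.012 for *Eif4ebp1*.

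A transporter had the lowest log2 fold change in the pathway lists. Of 9 amino acid transporters, all tested, the median log2 fold change was −0.03, and 1 was lower in KO at an unadjusted *p* under 0.05, where 3.03% of all genes were. This was *Slc7a11*, the cystine transporter subunit that pairs with the *Slc3a2* product, with 80.2, 45.8 and 58.1 normalized counts in KO and 111.4, 72.1 and 139.7 in WT. Each KO library was lower than its littermate, by log2 ratios of −0.47, −0.65 and −1.25, and the genotypes overlapped. The fit gave −0.79 on the log2 scale, with a standard error of 0.19 and an adjusted *p* of 0.738 in limma. *Slc7a5*, the leucine transporter subunit that also pairs with the *Slc3a2* product, had a log2 fold change of −0.07 (standard error 0.08), which ran from −0.16 to −0.021 with 1 replicate left out.

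Of 12 genes for amino acid and one-carbon synthesis, all tested, the median log2 fold change was −0.01. Mitochondrial *Aldh1l2* was lower in KO at an unadjusted *p* under 0.05 (log2 fold change −0.24, standard error 0.10, adjusted *p* = 0.970, limma). *Psph*, which completes serine synthesis after *Phgdh* and *Psat1*, was at 0.04, and *Shmt2* and *Mthfd2*, which pass serine carbon on in mitochondria, at 0.10 and −0.02. With 1 replicate left out, they ran from 0.014 to 0.061 for *Psph*, 0.022 to 0.16 for *Shmt2* and −0.040 to −0.006 for *Mthfd2*. Of 20 cytosolic aminoacyl-tRNA synthetases, many of them ATF4 targets, all were tested, 13 had a negative log2 fold change, the median was −0.03, and *Eprs* (−0.20, standard error 0.07, adjusted *p* = 0.970, limma) was the 1 gene lower at an unadjusted *p* under 0.05, where 3.03% of all genes were. It was −0.13 without replicate 3, with log2 ratios of −0.14, −0.11 and −0.34 in pairs 1, 2 and 3.

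Of 17 genes of the IRE1 and ATF6 branches, all tested, 16 had a negative log2 fold change, 12 were lower in KO in all 3 pairs (13.1% of all genes) and 11 were lower at an unadjusted *p* under 0.05 (3.03% of all genes), with 0 passing after adjustment in limma. At the same unadjusted *p*, 13 of the 17 were lower without replicate 1, 8 without replicate 2 and 8 without replicate 3. Of all 12322 genes tested, 627, 292 and 332 were lower in these settings, in that order. Without the replicate block, 3 of the 17 and 170 of all genes were lower. The median log2 fold change of the 17 genes was −0.38, against −0.09 for the 10 integrated stress response genes and 0.001 for all genes tested. It was −0.21 without replicate 3. The median ratio of the 17 genes was −0.11, −0.31 and −0.62 in pairs 1, 2 and 3, against −0.11, −0.05 and −0.17 for the 10 genes. For the 5 plasmablast markers tested it was 0.344, 0.006 and −0.498, so that it also fell from pair 1 to pair 3. The part of plasmablast content in the ratios of the 17 genes was not tested. *Hspa5*, the chaperone BiP, had 10252, 7608 and 9625 normalized counts in KO and 12347, 9509 and 14369 in WT. Each KO library was lower than its littermate, for a fitted value of −0.39 on the log2 scale (standard error 0.08, adjusted *p* = 0.693, limma), which DESeq2 without the filter called with an adjusted *p* of 0.0306. Over all alternatives the adjusted *p* of *Hspa5* ran from 0.0306 to 0.9997.

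Further chaperones and sensors of these branches differed in how the pairs behaved. The log2 fold changes were −0.42 for *Hsp90b1*, −0.50 for *Sdf2l1*, −0.30 for *Pdia4* and −0.42 for *Dnajc3*, with adjusted *p* between 0.693 and 0.849 in limma, and *Hsp90b1* was −0.28 without replicate 3. Without replicate 1, *Hsp90b1* and *Sdf2l1* passed in limma with adjusted *p* of 0.0175 and 0.0242, the lowest over the alternatives, where the highest was 0.9997 for both. *Ern1*, which encodes IRE1, had ratios of 0.11, −0.35 and −1.25, *Xbp1* had 0.72, 0.24 and −0.40, and *Atf6* had 0.17, 0.02 and −0.56. These 3 genes were higher in KO in pair 1 and lower in pair 3, and they do not stand for the 17 genes. Of the 17, 12 were lower in KO in all 3 pairs, as were 6 of the 10 integrated stress response genes (13.1% of all genes).

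The Pearson *r* of each gene with the mean profile of the 10, in which each is included and of which the following 7 make up the larger part, was between 0.918 and 0.989 for *Atf4*, *Ddit3*, *Ppp1r15a*, *Trib3*, *Chac1*, *Sesn2* and *Slc3a2*. It was 0.574 for *Asns*, −0.12 for *Psat1* and −0.47 for *Phgdh*. The genes outside the 10 with the highest *r* to this profile were *Ighv1-18*, *Sdhc*, *Qpctl* and *Nars* (0.991 each) and *Ighv8-8* (0.990), over 6 libraries that share their pairs. *Ighv1-18*, a heavy chain V gene whose reads can be shared with its paralogs, had 296, 90.6 and 232.5 normalized counts in KO and 374, 122 and 563.5 in WT, while *Nars*, the asparaginyl-tRNA synthetase, had 2005, 1741 and 1932 in KO and 2080, 1766 and 2126 in WT. Both were lowest in pair 2 and lower in KO in each pair. The mean profile has this shape too, so that it follows from their choice by *r* and is no separate result.

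The promoters of the 10 genes were searched on both strands for 4 short motifs, in RefSeq windows of GRCm38.p6 from 250 bases before to 50 after each gene start. All 10 genes had a window. TGATGNAA, the core that ATF4 and C/EBP factors can bind together, was found in *Chac1*, *Trib3* and *Asns*, 3 of 10 genes, and in 3.97% of all 32851 windows. TGACGTCA, the palindromic site of CREB and ATF factors, was found in *Ppp1r15a* and in 1.79% of windows. ATTGCATCA, which includes the reverse of the TGATGNAA core, was found in none of the 10 and in 0.192% of windows. The ER stress response element, CCAAT and CCACG with 9 bases between them, was found in none of the 10 and in 0.119% of windows, and in 6 of the 14 genes of the IRE1 and ATF6 branches matched to a window by symbol. Of the genes with the core, *Chac1* and *Trib3* were low in pair 2 and *Asns* was not, and a match is a description of letters and shows no binding.

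The matches in the 10 genes are shown because they set *Chac1*, *Trib3* and *Ppp1r15a*, lowest in pair 2, beside *Asns*. The other genes lowest in pair 2, *Atf4*, *Ddit3*, *Sesn2* and *Slc3a2*, had no match, and sites outside the windows were not searched. The motif is in capitals, and each stretch is written 5′ to 3′ on the strand of its gene. *Chac1* is given with the bases of its window that lie before the annotated gene (chr2:119350992-119351228, plus strand, GRCm38.p6), and the others as 30 bases around the motif, for *Trib3* at chr2:152344028-152344057 (minus strand), for *Asns* at chr6:7693214-7693243 (minus strand) and for *Ppp1r15a* at chr7:45526262-45526291 (minus strand).
Chac1: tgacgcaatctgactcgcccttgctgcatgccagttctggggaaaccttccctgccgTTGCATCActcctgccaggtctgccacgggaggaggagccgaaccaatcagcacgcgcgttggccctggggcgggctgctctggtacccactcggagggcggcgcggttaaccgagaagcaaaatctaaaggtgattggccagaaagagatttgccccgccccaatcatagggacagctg
Trib3: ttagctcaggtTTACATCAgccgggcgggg
Asns: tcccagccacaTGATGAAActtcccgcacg
Ppp1r15a: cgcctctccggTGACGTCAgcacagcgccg
In *Chac1* the core starts 193 bases before the RefSeq gene start, in *Asns* it starts 23 bases before it, and in *Trib3* it lies 14 bases after it. It reads on the opposite strand in *Chac1* and *Trib3*. By the Gencode positions given above, the core lies inside *Asns* and before *Trib3*, so that these 2 places depend on the annotation. The palindrome of *Ppp1r15a* starts 12 bases before the gene start.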

How the data were processed

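RNA-seq libraries of 3 KO and 3 WT cultures were grouped by their labels. The authors aligned reads with STAR (2.6.1a), counted fragments by strand with featureCounts of Subread (1.6.3) and Gencode vM19, and deposited the signal analysed here, counts divided by DESeq2 size factors. All deposited values above 0 (100%, within 0.01) were whole multiples of a step per library, which gave back fragments for count tests. Symbols and positions came from Gencode vM21 (54409 of 54446 identifiers matched).

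Genes whose mean reached 10 normalized counts were tested across all genes in limma (3.58.1, R 4.3.3, trend) on log2(value + 1), two-sided, with the pair and genotype in the model. An F test of the pair terms gave differences between pairs. Fold changes understate low genes. Alternatives were pseudocounts of 0.5 and 5, no filter or a mean of 50, TMM, quantile or median-ratio scaling without Ig genes, edgeR (4.0.16), DESeq2 (1.42.0, without the filter), no replicate block, and each replicate left out. DESeq2 kept its own default filtering by mean count when *p* was adjusted. The scripts' tests were first run on simulated data. The littermates pair the libraries, and deviations from group means correlated within pairs (0.328, 0.685 and 0.17 over genes). No libraries were duplicates (chi-square per gene of 7.86 to 11.0 within genotypes). With 3 pairs an exact permutation test cannot go below *p* = 0.25. A gene at 0 can still have had 3 fragments, which is 2.72 to 3.61 normalized counts, and counting errors cover counting only.

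Genes were named by rule: the 10 members; kinases, factors, enzymes and chaperones named by choice; from each pathway list up to 4 genes with the lowest unadjusted *p* under 0.05; and the 5 genes most correlated with the members' mean centred profile. Marker lists covered B, plasmablast, T, myeloid and NK cells, and a further marker list is not reported here. The members and lists were chosen with earlier results of these data known.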

Additional observations from a re-analysis of the deposited data

How the results depend on the processing

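The log2 fold changes of the 10 genes were recomputed 130 times, of which 128 had the same sign and side of the threshold and 2 the opposite sign. With 1 replicate left out, log2 fold changes ran from −0.068 to 0.013 for *Phgdh* and from −0.024 to 0.11 for *Psat1*. The median of the 10 genes moved by less than its spread between pairs under every alternative. Without the replicate block (an unpaired model), 0 genes were called for KO against WT, the median of the 10 genes stayed −0.09, and 0 members and 3 IRE1 and ATF6 genes were lower at an unadjusted *p* under 0.05, while genes under that *p* numbered 170 lower and 126 higher in KO, against 373 and 206 with the pair. DESeq2, which also lacked the filter at a mean of 10 (24684 genes tested), called 22 genes lower and 1 higher in KO. At an unadjusted *p* under 0.05 in DESeq2, 1 member was lower, where 194 of all genes were lower and 33 higher. Between pairs, DESeq2 called 247 genes and 2 members. With no filter, 51 genes and 0 members differed between pairs. With 1 replicate left out, 0 to 168 genes were lower and 0 to 3 higher in KO, and 5 to 728 genes and 0 to 5 members differed between pairs. In both remaining pairs, 6 to 8 members were lower and 0 to 1 higher in KO. The shares of all genes given above for 3 pairs do not apply to these counts. Leave-one-out log2 fold changes ran from −0.019 to 0.20 for *Eif2ak4*, −0.069 to 0.033 for *Eif2s1*, −0.002 to 0.082 for *Ppp1r15b*, −0.16 to 0.12 for *Cebpb*, −0.11 to 0.16 for *Nupr1* (0.006 in edgeR), −0.077 to 0.48 for *Xbp1*, −0.27 to 0.10 for *Atf6* and −0.033 to 0.52 for *Tent5c*. The causes were not tested. The alternatives for named genes outside the members, for IRE1 and ATF6 genes and for unadjusted *p* were chosen after seeing the data. With *Trib3* at 90 to 169 fragments per library, counting error alone exceeds its difference between genotypes.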
